A study of Mus musculus with 4 samples.

Results

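Metabolic nuclear receptors are transcription factors through which liver cells sense fatty acids, sterols, bile acids and foreign compounds. The 10 genes described here are Ppara, Ppard, Pparg, Rxra, Nr1h3, Nr1i2, Nr1i3, Hnf4a, Nr5a2 and Esrra, chosen by name, and they are read by 14 of 41174 gene probes (10 of 28786 genes) on each array. Livers came from C57BL/6J mice, an inbred laboratory strain, either fetuses or mothers, and either control or food-deprived. Control animals had chow and tap water freely under 12 h of light and 12 h of dark. Total RNA of 5 to 10 animals was pooled per condition, and food-deprived RNA was hybridised against control RNA of the same subject on 2 two-colour Agilent arrays with the dyes swapped. The titles number the pooled samples by array and do not settle whether both arrays of a subject carry the same pools, which was assumed here, giving 1 pool for each of 4 conditions. On array 1 the food-deprived RNA carried the red dye Cy5, and on array 2 the green dye Cy3. How long food was withheld, how far gestation had advanced and which sexes the fetal pools held are not stated in the labels used here. Under that assumption no significance test was made, the agreement of the dye-swapped arrays is the only check on a value, and it measures technical spread.

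Most of these receptors work as pairs with RXRA, the retinoid X receptor that Rxra encodes, and the pair sits on DNA near target genes and recruits coactivators or corepressors according to the ligand bound. PPARA is the fatty acid sensor that drives fatty acid burning and ketone body production in the fasting liver, and PPARG, its relative, favours fat storage. NR1H3 (LXR alpha) senses oxysterols, NR1I2 (PXR) and NR1I3 (CAR) sense drugs, steroids and bile acids, HNF4A maintains hepatocyte identity, NR5A2 (LRH-1) acts on bile acid and glucose metabolism, and ESRRA works with coactivators of the PGC-1 family on mitochondrial genes.

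Most of the receptors differed more between control mother and control fetus than between food-deprived and control liver, with Esrra as an exception. In control liver 6 of 9 measured receptor genes were called higher in the mother, led by Nr1i3 at 8.70-fold, and none was called lower, where 9.06% of all measured genes were called higher. Food deprivation moved none of the 9 past the call rule in either subject, where it moved 0.737% of all measured genes in the fetus and 3.43% in the mother. The closest was Nr1i2 in the fetus, at 1.76-fold on average. The call rule asked for a mean difference of 2-fold or more, with both arrays past 1.5-fold on the same side.

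The promoter windows of 3 receptors are shown, because they belong to the receptor with the largest difference between mother and fetus and to 2 whose windows held a motif searched for. Each runs from 250 to 51 bases before an annotated transcript start in the RefSeq table of build GRCm38.p6, 5′ to 3′ on the strand of the gene. Capitals mark a motif. The motifs were AGGTCA, the half-site that these receptors read, and GTTAAT followed after any 2 bases by TTAA, the palindrome read by HNF1 factors, each on both strands. Nr1i3 lies at chr1:171213720-171213919 (plus strand), Nr5a2 at chr1:136960499-136960698 (minus strand) and Hnf4a at chr2:163546905-163547104 (plus strand).
Nr1i3: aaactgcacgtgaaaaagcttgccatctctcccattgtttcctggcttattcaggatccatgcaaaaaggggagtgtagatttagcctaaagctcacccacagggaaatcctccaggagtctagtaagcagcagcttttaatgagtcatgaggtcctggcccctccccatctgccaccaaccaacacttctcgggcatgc
Nr5a2: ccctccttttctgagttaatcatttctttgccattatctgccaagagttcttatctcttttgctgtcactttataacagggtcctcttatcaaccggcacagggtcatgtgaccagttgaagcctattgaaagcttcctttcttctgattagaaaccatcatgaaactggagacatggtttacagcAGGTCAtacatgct
Hnf4a: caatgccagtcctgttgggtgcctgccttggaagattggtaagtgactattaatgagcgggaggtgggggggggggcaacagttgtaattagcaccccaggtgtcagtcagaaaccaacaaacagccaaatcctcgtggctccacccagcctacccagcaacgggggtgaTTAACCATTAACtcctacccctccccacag
The Nr5a2 half-site lies 64 to 59 bases before the start and the Hnf4a palindrome 80 to 69 bases before the start, while the Nr1i3 window held neither motif. The table holds 16 windows for the 10 receptors. The half-site was in 2 of these 16, those of Nr5a2 and of 1 Rxra start, against 11.4% of all 32851 windows. The palindrome was in 1 of 16, the Hnf4a window printed, against 0.0883% of all windows. A match is a stretch of letters and says nothing of whether a factor binds there.

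Of the foreign-compound sensors, Nr1i3 had the widest range of levels of any measured receptor. Its probe (chr1:171187738-171187797 in mm7, the build of the array's annotation) gave log2 levels of 7.99 and 8.21 in control fetal liver on arrays 1 and 2, and 8.53 and 8.64 in food-deprived fetal liver. In maternal liver its log2 levels were 11.20 and 11.24 in controls and 10.97 and 11.06 after food deprivation. Both maternal pools thus lay far above both fetal pools, and in each subject the control and food-deprived channels did not overlap. What share of all measured genes shows no overlap was not counted, for this receptor or those below, so overlap is description only. Set in the same dye, the maternal control level exceeded the fetal one by a log2 difference of 3.21 in Cy3 and 3.04 in Cy5. Of all 18086 genes measured in that comparison, 0.868% had a larger positive difference. After food deprivation the log2 difference was 2.44 in Cy5 and 2.42 in Cy3, a 5.39-fold higher maternal level. The log2 ratio of food-deprived over control was 0.54 and 0.43 in the fetus and -0.23 and -0.18 in the mother, none of which reached the call rule. The fetal ratios were therefore above 0 on both arrays and the maternal ratios below 0 on both. What share of all measured genes does the same was not counted.

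Nr1i2 (chr16:37955460-37955519 in mm7) had log2 levels of 9.79 and 9.53 in control fetal liver and 10.32 and 10.64 in food-deprived fetal liver. Its log2 levels in the mother were 11.22 and 10.80 in controls and 11.20 and 11.13 after food deprivation. The fetal channels separated by condition, the maternal ones overlapped, and all maternal channels lay above all fetal ones. The fetal log2 ratio was 0.53 on array 1 and 1.11 on array 2, a mean of 0.82, and 0.803% of 18055 measured genes had a higher mean. The second array alone would have passed a 2-fold limit and the first would not, so the size of this ratio rests on 1 array. In the mother the log2 ratio was -0.02 and 0.34. The maternal control level was 2.54-fold the fetal one (log2 1.42 and 1.27), and in food-deprived liver the difference was 0.88 and 0.50, short of the call rule.

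Among the PPARs, Ppara and Pparg could be followed closely, because each of their probes was printed 10 times on every array. The Ppara probe (chr15:85883890-85883949 in mm7) gave log2 levels of 10.88 and 11.04 in control fetal liver and 11.27 and 11.23 in food-deprived fetal liver. In the mother they were 11.60 and 11.65 in controls and 11.90 and 11.62 after food deprivation. Fetal levels separated by condition, and maternal levels overlapped. Over its spots that remained after outliers were dropped, the fetal log2 ratio ran from 0.28 to 0.54 on array 1 (mean 0.39, SD 0.073, 9 spots) and from 0.02 to 0.33 on array 2 (mean 0.19, SD 0.083, 9 spots). In the mother it ran from 0.11 to 0.41 on array 1 (mean 0.31) and from -0.15 to 0.09 on array 2 (mean -0.03), where 3 of 9 spots were above 0. The maternal arrays thus did not share a direction for Ppara, and the gap between them exceeded the spread of the spots within an array. The maternal control level was above the fetal one by a log2 difference of 0.72 and 0.61, which missed the call rule.

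Pparg (chr6:115515909-115515968 in mm7) gave log2 levels of 8.46 and 8.54 in control fetal liver, 8.79 and 8.70 in food-deprived fetal liver, 9.30 and 9.33 in control maternal liver and 9.94 and 9.75 in food-deprived maternal liver. These 4 conditions did not overlap at any step of that order, and how many genes share such an order was not counted. Its spots in the mother ran from 0.60 to 0.70 on array 1 (8 spots) and from 0.32 to 0.49 on array 2 (9 spots), all above 0, with a mean log2 ratio of 0.53. That was the largest maternal ratio of the 9 receptors, at 1.45-fold, and it stayed below the call rule. In the fetus the spots ran from 0.19 to 0.54 on array 1 and from 0.08 to 0.23 on array 2. The maternal level exceeded the fetal one by a log2 difference of 0.84 and 0.79 in control liver, short of the rule, and by 1.15 and 1.05 in food-deprived liver, where it was called at 2.14-fold.

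**Figure D1:**
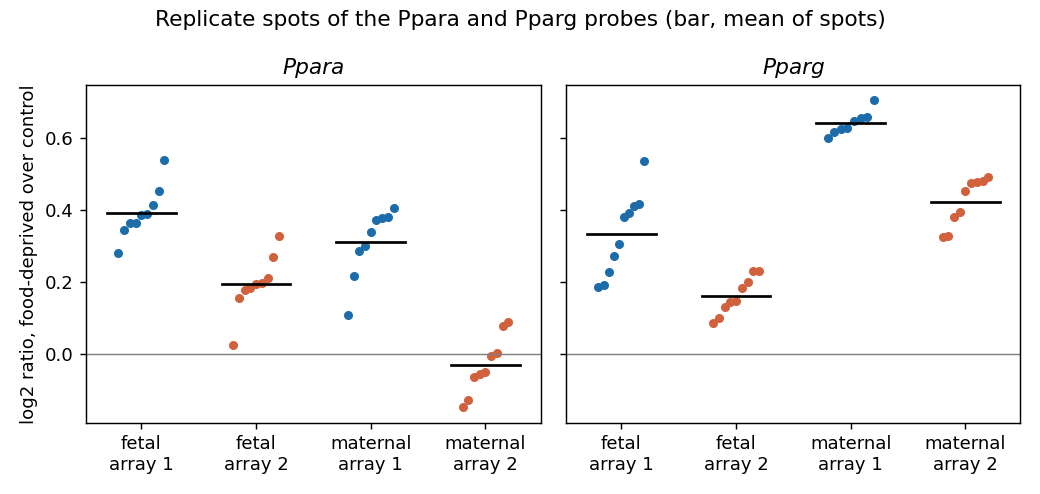
Log2 ratio of food-deprived over control signal at each replicate spot of the Ppara and Pparg probes, by array, with a bar at the mean of the spots on that array. All Pparg spots lie above 0, and on maternal array 2 the Ppara spots fall on either side of 0, with 3 of 9 above it.

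Ppard, the third PPAR, has 1 probe (chr17:26486311-26486370 in mm7), which was not well above background in either condition on both arrays of a comparison. It was well above background only in the red channel of both fetal arrays, which held different conditions, and in 1 maternal channel. It is left out of every count of called receptors, and no ratio is given for it.

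Nr1h3 (chr2:91034994-91035053 in mm7), the oxysterol sensor, had log2 levels of 9.98 and 10.17 in control fetal liver and 9.86 and 9.87 in food-deprived fetal liver. In the mother they were 11.98 and 11.87 in controls and 11.79 and 11.56 after food deprivation. It was the only receptor of the 9 whose log2 ratio was below 0 on all 4 arrays, at -0.12 and -0.30 in the fetus and -0.19 and -0.32 in the mother, and none of these reached the call rule. The control levels of mother and fetus differed by log2 2.00 and 1.71, a 3.61-fold higher maternal level. After food deprivation the difference was 1.94 and 1.68, or 3.51-fold, so the maternal excess of Nr1h3 was about the same in both conditions.

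Rxra, the shared partner, has 2 probes. The brighter one (chr2:27770202-27770261 in mm7) gave fetal log2 levels of 11.71 and 12.24 in controls and 12.06 and 12.84 after food deprivation, which overlap. In the mother it gave 13.15 and 12.94 in controls and 13.11 and 13.06 after food deprivation, which overlap too. The fetal overlap is between arrays. Within each array the fetal log2 ratio was above 0, at 0.35 and 0.60, and the maternal ratio was -0.05 and 0.12. The maternal control level exceeded the fetal one by a log2 difference of 1.44 in Cy3 and 0.69 in Cy5, a called mean of 2.10-fold that array 2 alone would not have given. The dimmer probe (chr2:27767107-27767166 in mm7) gave 0.91 and 0.73, with a mean of 0.82, below the rule, so the call for Rxra holds for 1 of its 2 probes. After food deprivation the brighter probe gave 1.05 and 0.22 and was not called.

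Hnf4a, the hepatocyte identity factor, has 3 probes, of which the brightest (chr2:163313228-163313287 in mm7) stands for the gene. Its log2 levels were 9.95 and 10.02 in control fetal liver, 10.27 and 10.28 in food-deprived fetal liver, 11.42 and 11.31 in control maternal liver, and 11.66 and 11.61 in food-deprived maternal liver. No step of this order overlapped. The log2 ratio was 0.32 and 0.25 in the fetus and 0.24 and 0.30 in the mother, close in size in both subjects and below the call rule. The maternal level was 2.60-fold the fetal one in control liver (log2 1.47 and 1.29) and 2.57-fold in food-deprived liver (1.39 and 1.33). The other 2 probes gave mean log2 differences of 0.98 and 0.95 in control liver, just under the 2-fold limit. All 3 probes gave ratios above 0 on all 4 arrays.

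Nr5a2 (chr1:136732418-136732477 in mm7) had log2 levels of 9.49 and 9.22 in control fetal liver and 9.37 and 9.80 in food-deprived fetal liver, which overlap. In the mother they were 10.74 and 10.40 in controls and 10.12 and 10.18 after food deprivation, which do not. Its log2 ratio was -0.11 and 0.58 in the fetus, with no shared direction, and -0.62 and -0.22 in the mother, the lowest maternal mean of the 9 at -0.42. The maternal control level was 2.33-fold the fetal one (log2 1.26 and 1.18). After food deprivation the difference was 0.75 and 0.38 and was not called.

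Esrra, the mitochondrial regulator, had the smallest difference between mother and fetus. Its brighter probe (chr19:6730973-6731032 in mm7) gave log2 levels of 9.92 and 9.66 in control fetal liver, 10.12 and 10.30 in food-deprived fetal liver, 10.24 and 9.99 in control maternal liver and 10.59 and 10.37 in food-deprived maternal liver. Food-deprived fetal and control maternal levels overlapped, so Esrra was ordered less by subject than the other receptors. The log2 ratio was 0.21 and 0.64 in the fetus and 0.35 and 0.37 in the mother, not called in either. The maternal control level exceeded the fetal one by 0.32 and 0.33. The second probe (chr19:6736544-6736603 in mm7) gave -0.08 and 0.09 for that difference.

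**Figure D2:**
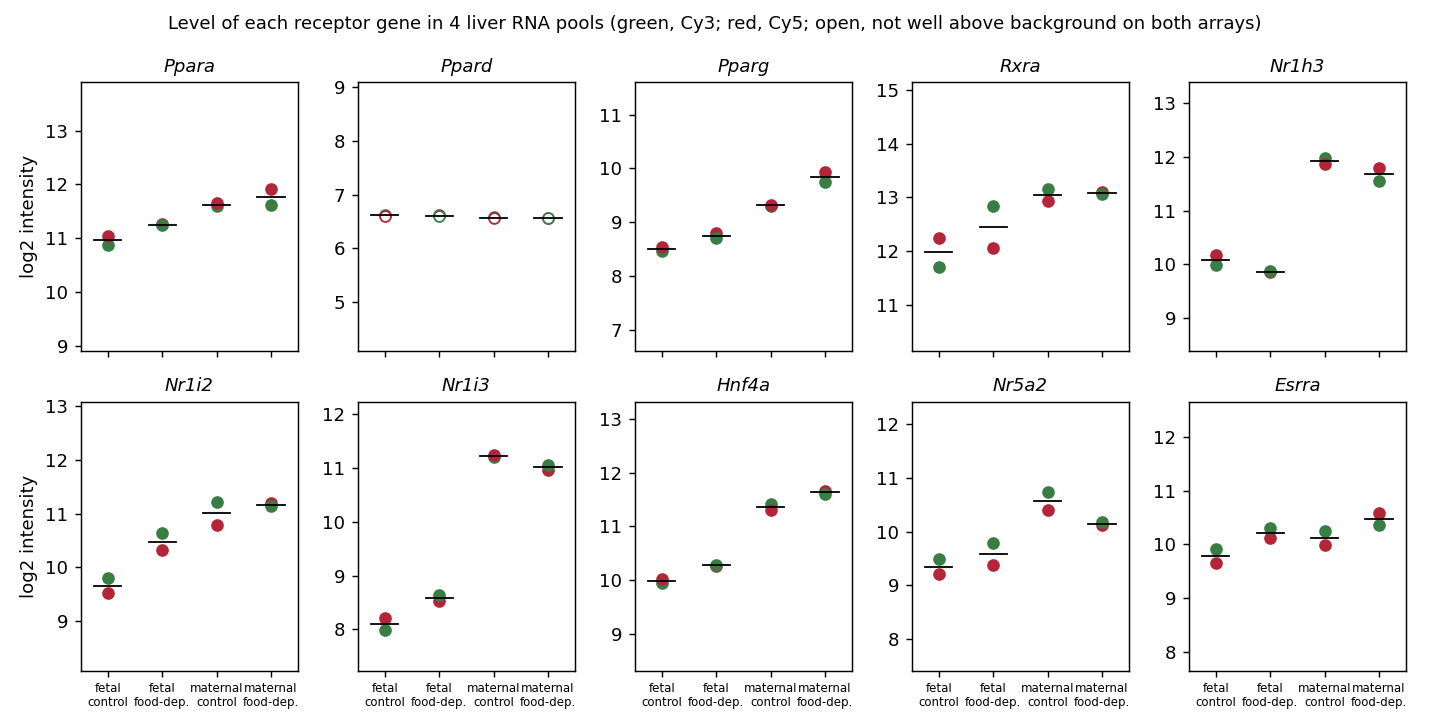
Log2 intensity of each receptor gene in the 4 liver pools, each measured once in green Cy3 and once in red Cy5, with a bar at the mean. Open circles mark Ppard, whose probe was not well above background on both arrays in any condition, and the axes span the same range around each gene's own mean, so heights are not comparable between genes. Nr1i3 shows the widest gap, from about 7.99 in control fetal liver to 11.24 in control maternal liver.

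Across the fetal arrays, 0 of 9 measured receptors were called, where the rule called 0.737% of 18055 measured genes, 0.471% as higher and 0.266% as lower. The median log2 ratio of the 9 was 0.29, against 0.00 over all measured genes. For 7 of the 9 both arrays were above 0, a state shared by 32.0% of all measured genes. These were Ppara, Pparg, Rxra, Nr1i2, Nr1i3, Hnf4a and Esrra, while Nr1h3 was below 0 on both arrays and Nr5a2 was mixed. With median centring in place of loess the median of all genes moved to 0.09 and that of the 9 receptors to 0.51, and Nr1i2 was then called at 1.02. Over all genes that centring called 69 higher and 22 lower in place of 85 and 48, so higher genes made up 75.8% of calls in place of 63.9%.

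Across the maternal arrays, 0 of 9 were called, where the rule called 3.43% of 16148 genes, 1.55% as higher and 1.88% as lower. The median of the 9 was 0.14, against -0.01 over all measured genes. Pparg, Hnf4a and Esrra were above 0 on both arrays, Nr1h3, Nr1i3 and Nr5a2 were below 0 on both, and Ppara, Rxra and Nr1i2 were mixed. Over all measured genes 32.8% were above 0 on both arrays. With 9 receptors and background rates this low, a count of 0 says little about the receptors as a group. With median centring no receptor was called either, the share of higher genes among called genes went from 45.1% to 34.9%, and the genes called fell from 250 higher and 304 lower to 45 and 84.

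**Figure D3:**
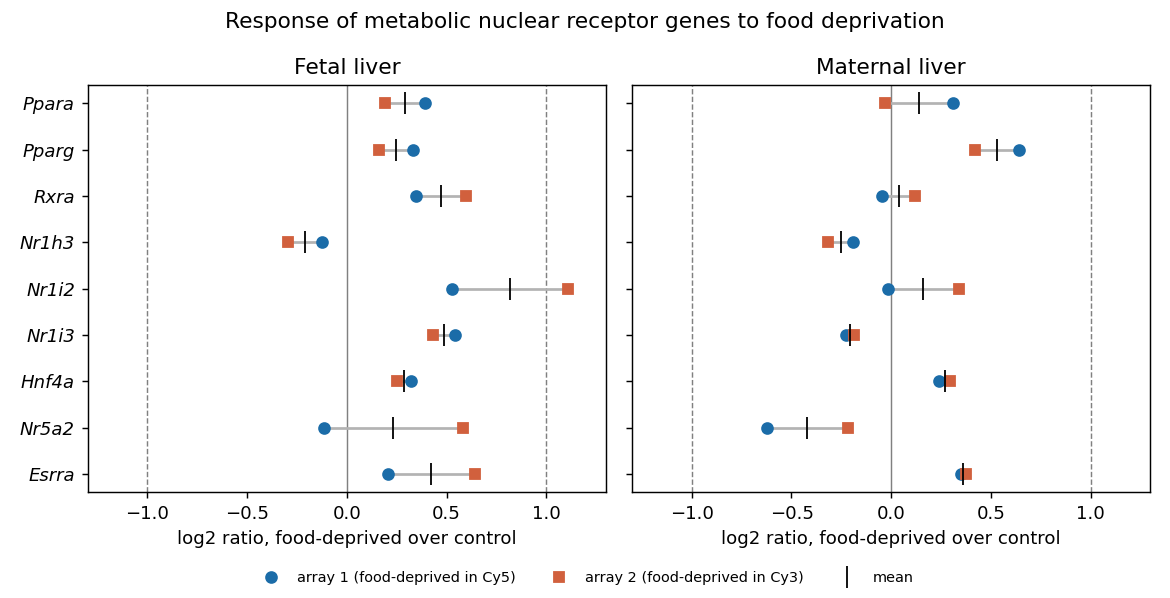
Log2 ratio of food-deprived over control signal of the 9 measured receptor genes on array 1 (circles) and array 2 (squares) in fetal and maternal liver, with a tick at the mean and dashed lines at a 2-fold difference in either direction. All means lie inside the dashed lines, and the fetal Nr1i2 value of array 2, at 1.11, is the only point outside them.

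The responses of mother and fetus were also set against each other on arrays of the same dye orientation. None of 9 receptors was called, where the rule called 2.99% of 15598 genes, 1.23% as higher in the mother and 1.76% as lower. Median centring moved the share called higher from 41.2% to 16.1% of called genes and still called no receptor. The log2 difference, maternal minus fetal, was -0.77 and -0.62 for Nr1i3, -0.54 and -0.77 for Nr1i2, -0.51 and -0.80 for Nr5a2 and -0.39 and -0.48 for Rxra. These 4, with Ppara at -0.08 and -0.23 and Nr1h3 at -0.07 and -0.02, had a lower ratio in the mother on both orientations. The share of all measured genes lower on both was not counted, so this is description only. The median over all measured genes was -0.02. Of the 9, Pparg alone had a higher one on both, at 0.31 and 0.26, as did 35.1% of all measured genes.

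In control liver the 6 receptors called higher in the mother (Nr1i3, Nr1h3, Hnf4a, Nr1i2, Nr5a2 and Rxra) compare with 19.3% of 18086 genes called, 9.06% higher and 10.3% lower. The median log2 difference of the 9 was 1.22, against 0.02 over all genes. In food-deprived liver 4 of 9 were called higher (Nr1i3, Nr1h3, Hnf4a and Pparg), where 18.2% of 17895 genes were called, 7.76% higher and 10.4% lower, and the median of the 9 was 0.69. All 9 lay above 0 in both dyes in both conditions, as did 45.7% of all measured genes in control liver and 44.9% in food-deprived liver. Mother and fetus never shared an array, so subject and array cannot be told apart in these differences.

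**Figure D4:**
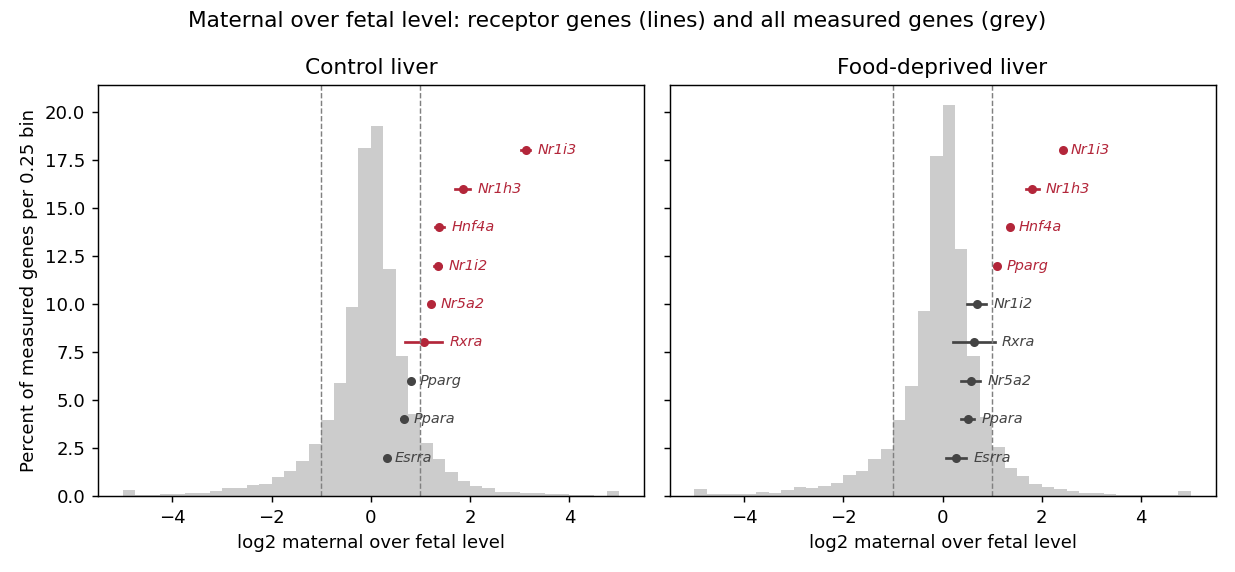
Log2 difference of maternal over fetal level for the 9 measured receptor genes (points, means; lines, the values in each dye; red, called higher) over a histogram of all measured genes in percent, with values past 5 in the end bins and dashed lines at 2-fold. The points carry no height of their own and are stacked by rank, from Nr1i3 at 3.12 to Esrra at 0.33 in control liver.

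Levels of some cell type markers also differed between the subjects. In bulk RNA, fewer cells of a type and less RNA per cell cannot be told apart. The 6 hepatocyte markers on the array had summed linear levels of 164858 and 243397 in control fetal liver and of 188594 and 242182 in control maternal liver, and none of the 6 was called in that comparison. The 8 erythroid markers summed to 141648 and 143531 in control fetal liver and to 14540 and 13200 in control maternal liver, and all 8 were called lower in the mother. All 4 measured granulocyte markers and all 5 fetal hepatocyte markers, among them Afp, were called lower as well. The processing keeps every level above 0, so a level alone does not show detection. In control maternal liver 6 of 8 erythroid and 3 of 5 granulocyte markers were well above background on both arrays. The part of these marker differences in the receptor differences was not tested. In the maternal response 2 of 7 Kupffer cell markers fell, and their sum went from 21827 and 20072 in controls to 13142 and 11920 after food deprivation. Of 6 stellate cell and fibroblast markers only Col3a1 was called, 2.97-fold lower. Of 6 hepatocyte markers only Ttr was called, 3.55-fold lower, and of 6 endothelial markers only Lyve1, 2.02-fold higher. These genes do not stand for their lists. The median log2 ratio was 0.28 for hepatocyte and -0.16 for endothelial markers. For stellate cell and fibroblast markers the median was -0.24, while their sum went from 12689 and 11430 to 13181 and 13718. The part of these marker changes in the receptors' maternal ratios was not tested. No cell type marker was called in the fetal response. None of the 5 adipocyte markers was measured in any comparison.

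Of 38 other nuclear receptors, 25 were measured in the fetus and none was called there. Nr1d2, a heme-sensing clock repressor, came closest with log2 ratios of 1.16 and 0.80, followed by the bile acid receptor Nr1h4 with 0.61 and 0.45. On array 1 alone 1 was called, and from the scanner software's processed signals 2. In the mother 26 were measured, of which Nr4a1, an immediate-early receptor, rose 2.82-fold (1.71 and 1.28) and the estrogen receptor Esr1 fell 2.66-fold (-1.43 and -1.38). Neither was called with median centring. In control liver 7 of 27 were called higher in the mother and 1 lower, with a median of 0.53. Rxrg, a further retinoid X receptor, stood 7.42-fold higher, although in control fetal liver its probe was well above background on only 1 of 2 arrays. Esr1 stood 5.06-fold higher and Nr1d2 4.39-fold higher.

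All 21 coactivators and corepressors were measured in both subjects. Ppargc1b, a PGC-1 family coactivator, rose 2.04-fold in the fetus (log2 0.91 and 1.14), and Lpin1, a phosphatidate phosphatase that also coactivates PPARA, rose in the mother by 2.01 and 1.99 on the log2 scale. No other of the 21 was called. Averaging probes ended the fetal call, and median centring ended the maternal one. The median of the 21 was -0.01 (fetus) and 0.10 (mother). Between the subjects in control liver, the arginine methyltransferase Prmt1 stood 3.14-fold lower in the mother and was the only one called, while 2 were called on array 2 alone.

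Some target genes passed the rule where the receptors' own RNA did not. The target lists were chosen with earlier results of these data known, so counts here and below are descriptions and no independent support. Of 40 measured PPARA targets, 7 rose and none fell in the fetus (median log2 ratio 0.36), and 21 rose and none fell in the mother (median 1.1). With median centring the maternal count was 8, and on array 2 alone 1 fetal target fell. The fatty acid omega-hydroxylase Cyp4a14 rose 4.49-fold in the fetus (2.17 and 2.16) and 22.8-fold in the mother (4.76 and 4.26). Pdk4, the kinase that blocks pyruvate entry into the mitochondrion, rose 2.95-fold in the fetus (1.56 and 1.56) and 12.0-fold in the mother (3.63 and 3.53). In the fetus the others with the largest changes were Cyp4a31, the lipid droplet protein Plin5, the lipase inhibitor Angptl4 and Cyp4a10, from 2.63-fold to 3.63-fold. In the mother they were the thioesterase Acot1 with log2 ratios of 3.85 and 3.78, Cyp4a31 at 8.81-fold, the peroxisomal enzyme Ehhadh at 7.92-fold and the hormone Fgf21 at 6.26-fold. Cyp4a genes are close paralogues, and how far their probes bind each other's RNA was not tested. The direct comparison called 15 of 39 targets as responding more in the mother and none less, with Ehhadh at 7.84-fold and Plin2, the lipid droplet coat protein, at 7.64-fold. Median centring left 8, and on array 1 alone 1 was called as responding less. Ppara itself, for the same comparison, was at -0.08 and -0.23.

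Of 12 PPARG targets 8 were measured. None was called in the fetus, where Cidea at -0.85 and -0.60 and Cidec at 0.85 and 0.60 lay farthest from 0. In the mother 4 of 8 rose and none fell. The lipid droplet fusion protein Cidec rose 62.1-fold (6.03 and 5.88), the perilipin Plin4 7.16-fold, the fatty acid transporter Cd36 3.59-fold and Cidea 3.01-fold. In control liver Cidec and Cd36 stood higher in the mother, at 2.81-fold and 2.52-fold, and the lipoprotein lipase gene Lpl and the fatty acid carrier Fabp4 stood lower, at 15.2-fold and 5.79-fold. Fabp4 and Lpl are also expressed by macrophages and endothelium.

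The LXR targets fell where they were called, except for 1 gene. In the fetus 3 of 16 fell, the lipogenic genes Scd1 (5.32-fold), Fasn (4.08-fold) and Srebf1 (2.20-fold), and the sterol exporter Abcg5 rose 2.16-fold. In the mother 4 of 16 fell and none rose, namely Srebf1 (6.45-fold), Scd1 (4.27-fold), Cyp7a1, which catalyses the first step in making bile acids (4.25-fold), and Fasn (3.44-fold). Median centring left 1 falling in the fetus and 2 in the mother. Scd1 and Fasn are also known targets of SREBP-1c, the product of Srebf1. Nr1h3 lay below 0 on all 4 arrays without being called. In control liver 4 of 16 were called higher in the mother and 1 lower. Abcg5 stood 10.1-fold, Scd1 4.31-fold and Mlxipl 3.95-fold higher, and Lpl, shared with the PPARG list, stood 15.2-fold lower.

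Targets of PXR and CAR overlap, and Por, the electron donor of the cytochromes P450, is in both lists. It rose 2.35-fold in the fetus and 3.07-fold in the mother (1.65 and 1.59). Of 14 PXR targets in the fetus 3 rose and none fell, led by Cyp3a25, a drug-metabolising P450, at 3.33-fold (1.69 and 1.77), with Cyp3a13 at 2.16-fold. In the mother 3 of 15 rose, Por, the transporter Slco1a4 at 2.31-fold and the heme synthesis enzyme Alas1 at 2.03-fold, and the glutathione transferases Gsta1 (2.56-fold) and Gstm1 (2.18-fold) fell. Of 14 CAR targets in the fetus 2 rose, the stress gene Gadd45b at 3.03-fold and Por. In the mother 3 of 16 fell, the P450 genes Cyp2c29 (2.79-fold), Cyp2c54 (2.65-fold) and Cyp2c37 (2.27-fold), and Por alone rose. With median centring 1 gene of each list was called in the fetus and none in the mother. CAR targets had a median of 0.21 in fetal and -0.59 in maternal liver. On array 2 alone 1 PXR target rose and 5 CAR targets fell in the mother, and on array 1 alone 1 PXR target fell. The direct comparison of responses called 2 of 14 PXR targets lower in the mother, Cyp3a25 by 2.67-fold and Gsta1 by 2.38-fold, and 1 higher, Slco1a4 by 2.20-fold. On array 2 alone it called 4 lower and none higher, and with offset 0 none higher. It called 4 of 14 CAR targets lower (2 with median centring) and none higher.

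These drug-handling targets were also among those farthest above the fetal level in the mother. In control liver 10 of 14 PXR targets were called higher and none lower, with a median log2 difference of 1.90, and 10 of 16 CAR targets were called higher and 1 lower, with a median of 1.55. Among the CAR targets called higher, Cyp2b10 and Cyp2c38 were not measured in the fetus and entered through the maternal level alone. The Cyp2c38 probe was not well above background on either array in control fetal liver. Cyp2b9 stood 86.8-fold higher (6.32 and 6.56), Cyp2b13 52.2-fold, Cyp2c37 28.0-fold, Gsta2 22.7-fold and Cyp3a25 15.1-fold. Akr1b7, an aldose reductase relative, stood 11.9-fold lower. The Cyp2b genes are near-identical in sequence and may share signal, which was not tested.

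Of 20 measured HNF4A targets in the fetus, 1 was called, the apolipoprotein gene Apob, which rose 2.04-fold (1.17 and 0.89) and lost its call when probes were averaged, with median centring and on array 2 alone. In the mother 2 of 21 rose, Apoa4 at 14.6-fold (3.89 and 3.84) and the bile acid hydroxylase Cyp8b1 at 2.58-fold, and 3 fell, the thyroxine carrier Ttr at 3.55-fold, the hepatic lipase Lipc at 2.21-fold and the urea cycle enzyme Otc at 2.06-fold. Median centring left 1 rising and none falling. In control liver 9 of 20 stood higher in the mother and none lower, with the apolipoprotein gene Apoc3 at 15.5-fold and the clotting factor gene F7 at 9.83-fold. Among 11 NR5A2 targets, the bile salt export pump Abcb11 fell 4.79-fold in the mother and Cyp7a1, shared with the LXR list, 4.25-fold, while the kinase Plk3 rose 2.66-fold and Cyp8b1, shared with the HNF4A list, also rose. Neither rise was called with median centring. NR5A2 targets had a median of -0.17 in fetal and -0.70 in maternal liver, where Nr5a2 itself was at a mean of 0.23 and -0.42. Of the ESRRA targets 1 of 14 rose in the fetus, Pdk4, which is also a PPARA target, and 2 of 15 rose in the mother, Pdk4 and the cytochrome c gene Cycs at 2.38-fold (1 with median centring and 1 with probes averaged). None fell in either subject.

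**Figure D5:**
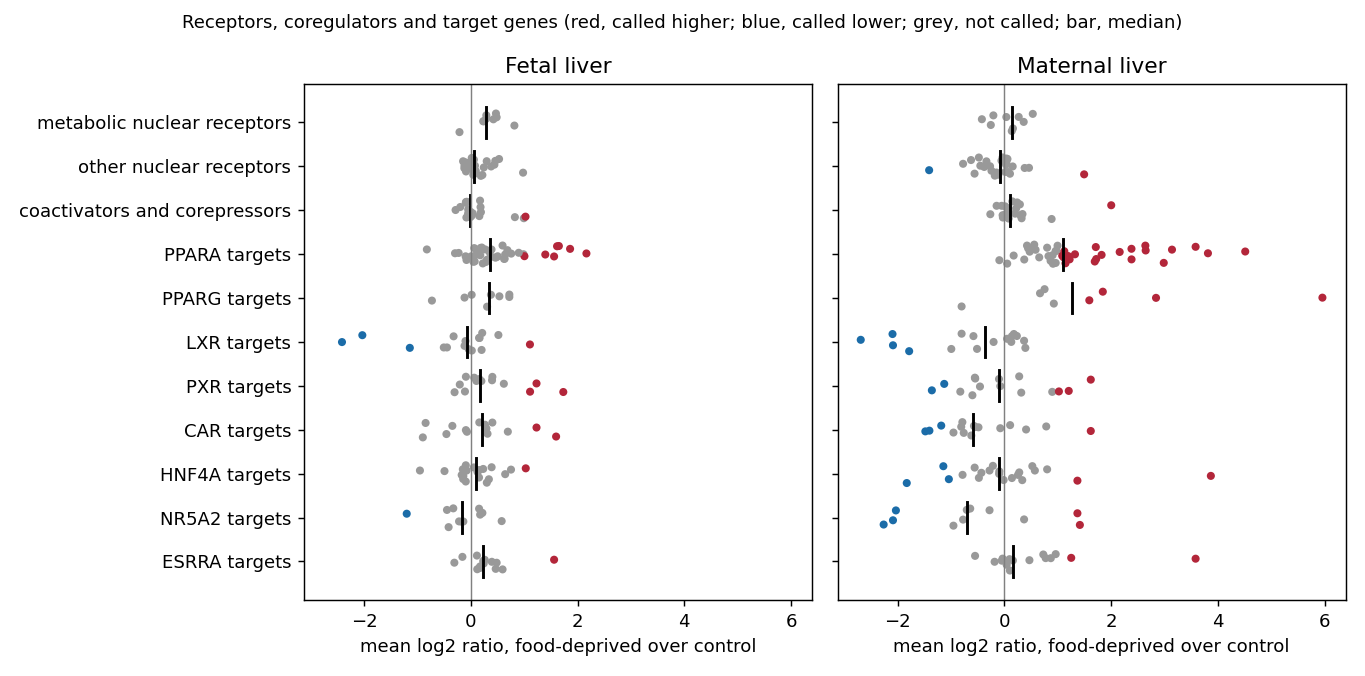
Mean log2 ratio of food-deprived over control signal for each measured gene of the receptor, coregulator and target lists in fetal and maternal liver (red, called higher; blue, called lower; grey, not called; bar, median of the list; vertical scatter within a list is for legibility). The 9 receptors sit within 1 unit of 0 in both panels, and the PPARA targets reach 2.17 in the fetus and 4.51 in the mother.

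For each of the 7 receptors called in a comparison of levels, the genes with the most similar values were sought among 15589 measured genes, by the distance over 6 values, the log2 ratio on each of 4 arrays and the control level difference in each dye. Hnf4a had the closest neighbour, Gna12, a G protein subunit, at a distance of 0.11, with a mean fetal ratio of 0.29, a maternal ratio of 0.27 and a level difference of 1.44. Tfb2m, a mitochondrial transcription factor, and Erbb3, a receptor of the ErbB family, followed at 0.19 and 0.31. Nearest to Nr1i2 were Etnk2 (0.30), Agxt (0.38) and Myh14 (0.48), and Etnk2, an ethanolamine kinase, shared its fetal ratios closely, at 0.75 and 1.16. Nearest to Pparg were Tom1l2 (0.18), the ubiquitin ligase gene Nedd4l (0.18) and the estrogen sulfotransferase gene Sult1e1 (0.19). Nearest to Nr1i3 were B3galt1 (0.34), Dpyd, the pyrimidine breakdown enzyme (0.39), and Gstk1 (0.40). Nr1h3 had 1810073H04Rik (0.24), Grtp1 (0.31) and C77080 (0.33), Nr5a2 had Rdh7 (0.33), Camk2n1 (0.41) and Eola1 (0.42), and Rxra had Fbxl17 (0.36), Urad (0.43) and Mfsd3 (0.45). The distances are descriptions of these arrays and carry no test.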

How the data were processed

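Liver RNA pools of fetal and maternal mice were measured on 4 two-colour arrays of 1 slide. Sample numbers 1 and 2 in the labels follow the dye orientation and the design text speaks of swapped dyes, so both arrays of a subject were taken to carry the same RNA pools and entered as 1 replicate. Per the file headers, the deposited intensity values are spot brightness and local background in both dyes, read with Agilent Feature Extraction 9.5.1.1 (version 9.5.3.1 in the submitters' processing notes). The headers also describe a deposited log10 ratio of processed red over green, background-subtracted and dye-normalised by that software. The deposited series table holds a signed number, treated as a score, whose size matched the ratio of processed signals (Pearson correlation from 0.99995 to 0.99997 on the log scale). Its sign follows the dye orientation, so its direction was taken from that match.

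R 4.3.3 with limma 3.58.1 applied normexp (offset 50) and loess within arrays, with control spots at weight 0. Aquantile normalisation gave single-channel log2 levels, which were compared between mother and fetus in the same dye. Spots with outlier marks were dropped (215 to 257 per array), spots of a probe were averaged, and the brightest probe stood for a gene. A probe counted as measured when 1 of the conditions compared was well above background on both arrays. Of gene spots, 53.2% to 69.7% were well above background per channel and none was saturated. Red over green correlated at -0.62 between the fetal arrays and -0.84 between the maternal ones. Of 41174 probes 22951, and 13 of 14 for the receptors, were named by accession through RefSeq (GRCm38.p6), 5141 of them anew, and the rest kept the name in the files. Promoter windows came from the same table. Probe coordinates are those of the files, and whether probes lie in exons or UTRs was not analysed here.

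In data simulated for the fetal response, 14% of genes changed 2-fold and 80% of genes changed 3-fold were called, and no unchanged probe was. A true 2-fold difference was thus often missed in the simulation. Recovered changes were smaller than those put in, at a mean log2 of 0.79 for 2-fold and 1.29 for 3-fold. The number of arrays limits the precision. The text names all 10 receptors, per list at most 6 called genes with the largest mean (or 2 where none was called), and the 3 genes nearest to each receptor called in a comparison. Ppargc1a, uncalled but near the limit in the fetus, is named besides, as is Cyp2c38 for its dim fetal signal. Some listed genes are not reported here. Receptors and gene lists were chosen with earlier results of these data known. Alternatives covered normalisation, offset, filters, probe choice, naming, the call rule and each array alone.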

Additional observations from a re-analysis of the deposited data

Results flagged for a closer look

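Nr1i3, the gene of the CAR receptor, was marked because its response to food deprivation pointed in opposite directions in the subjects. The mean log2 ratio of food-deprived over control was 0.49 in the fetus, above 0 on both arrays (0.54 and 0.43), and -0.21 in the mother, below 0 on both (-0.23 and -0.18). The maternal minus fetal difference averaged -0.69. With 1 pool per condition the difference was not tested, and neither response reached the call rule. What share of all measured genes pointed in opposite directions in this way was not counted, so the mark is a description only. Ratios above 0 on both fetal arrays alone were found for 32.0% of all measured genes.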

How the results depend on the processing

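No paired analysis was possible because the replicate numbers 1 and 2 mark the dye orientation and both arrays of a comparison count as 1 replicate. In the fetus the count of receptors called, 0, became 1 (Nr1i2) with median centring in place of loess (mean log2 ratio 1.02) and 1 under the laxer rule of a 1.5-fold mean with 1.2-fold on each array, and ranged from 0 to 1 when 1 array was left out (Nr1i2 at 1.11 on array 2 alone). It was 0 under every alternative in the mother. For maternal minus fetal response it was 3 under the laxer rule (Nr1i2, Nr1i3 and Nr5a2) and 0 otherwise. In control liver the 6 called higher ranged from 5 to 8. Rxra was lost with probes averaged (0.94) and without array 1 (0.69), Pparg joined with processed signals (1.02), and Ppara and Pparg joined under the laxer rule. In food-deprived liver, whose alternatives were chosen after seeing the data, the 4 ranged from 4 to 5, with Nr1i2 joining under the laxer rule and Rxra without array 2 (1.05). No called receptor changed direction under any alternative, while uncalled values near 0 crossed it 1 time in the fetus, 4 times in the mother and 4 times in their difference. The genes called depended more on the settings. Processed signals called 232 higher and 169 lower in the fetus, 657 and 810 in the mother, 494 and 709 for the difference in response, 3535 and 3774 for the control level and 3302 and 3622 for the food-deprived level, against 85 and 48, 250 and 304, 192 and 274, 1638 and 1855, and 1388 and 1862. The deposited series table gave 232 and 173, 659 and 817, and 493 and 706 for the responses. The laxer rule gave 322 and 166, 704 and 899, 594 and 935, 3187 and 3233, and 2864 and 3189. Offset 0 gave 116 and 73 in the fetus and 2324 and 2554 for the control level. Median centring gave 69 and 22 in the fetus and 67 and 349 for the difference. In the mother it gave 45 and 84. The cause was not tested. Dim signal limits Ppard, which without the filter on dim probes was still not called.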
